A study of Mus musculus with 8 samples.

Results

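Integrins and laminins are cell adhesion genes, and their transcripts were followed in mouse preadipocytes after knockdown of Fto, which encodes a dioxygenase that removes methyl groups from adenosine in RNA. The members were the genes whose symbols name an integrin subunit (Itga or Itgb) or a laminin chain (Lama, Lamb or Lamc). Of 23699 genes listed in each library, 38 met this rule, 27 of them integrin subunits and 11 of them laminin chains, and 5 further names of binding proteins and of Itgbl1 were left out. The cells were 3T3-L1 preadipocytes, an immortal line of mouse fibroblasts that can be induced to become adipocytes. In the siFto group (4 libraries) they had received a mixture of 3 Stealth siRNAs directed at Fto, and in the siCtr group (4 libraries) they had received 3 nontargeted Stealth siRNAs. Both groups were transfected with 40 nM siRNA in a lipid transfection reagent for 24 hours before confluence, were grown in DMEM with 25 mM glucose and 10% newborn calf serum, and were harvested 2 days past confluence, without induction of differentiation. All libraries came from 1 cell line, and the labels do not say whether replicates were separate cultures, so p-values measure the spread between these samples, which may be technical.

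Integrins are receptors made of an alpha and a beta subunit that span the cell membrane, bind matrix proteins outside and couple to actin through adaptor proteins inside. The pairing of subunits sets the ligand: some pairs bind the RGD sequence of fibronectin and vitronectin, others bind collagens or laminins, and a further set is used by leukocytes. Laminins are secreted trimers of an alpha, a beta and a gamma chain that form the scaffold of basement membranes, and adipocytes surround themselves with such a membrane as they mature. Preadipocytes live in a fibronectin and collagen matrix that is remodelled when they differentiate.

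Fto itself had 13.8, 10.7, 12.3 and 11.6 FPKM in siFto libraries, against 54.6, 55.4, 56.2 and 55.2 FPKM in siCtr libraries, where FPKM is the fragment number scaled by the length of the transcript and by the depth of the library. The 2 groups were far apart, with a log2 fold change of -2.15 (SE 0.063, limma adjusted p = 7.3e-08). By the width of the deposited intervals, each library held about 18.9 to 24.4 M fragments. Replicate 3 of siCtr stood apart from the other controls, with median pair differences of 1.28 to 1.53 standard errors against 0.900 to 0.986 among the other 3, so fold changes of named genes that change sign, or move by more than 1.5 times, without it are given both ways. The 8 preadipocyte and fibroblast markers summed to 7157 to 8183 FPKM in siFto libraries and 6653 to 7110 FPKM in siCtr libraries. Most of this sum was Col1a1 and Col1a2, and of the 8 markers 4 were higher (the other 2 being Ly6a and Thy1), 2 were lower (Pdgfra and Pdgfrb) and 2 were not called, and their part in the members' values was not tested. Leukocyte markers summed to 3.32 to 4.19 FPKM in siFto libraries and 3.15 to 3.79 FPKM in siCtr libraries, and endothelial and skeletal muscle markers to less than 1 FPKM in every library. The leukocyte sum includes the members Itgb2, Itgal and Itgam, and Itgb2 alone averaged 1.35 FPKM in siFto libraries and 1.59 FPKM in siCtr libraries. Mature adipocyte markers summed to 52.3 to 65.1 FPKM in siFto libraries and 50.3 to 80.3 FPKM in siCtr libraries. Most of this was Fabp4, with means of 52.9 FPKM in siFto libraries and 57.4 FPKM in siCtr libraries. Adipoq averaged 2.32 and 4.59 FPKM and Cidec 0.755 and 1.46 FPKM in siFto and siCtr libraries. Both were highest in siCtr replicate 4 (9.19 and 3.26 FPKM), and none of the 3 tested markers was called. Epithelial markers differed between the groups at a low level, with sums of 0.0689 to 0.157 FPKM in siFto libraries and 0.802 to 1.32 FPKM in siCtr libraries. This was mostly Krt14, which was listed at 0 in all siFto libraries and at 0.684 to 1.29 FPKM in siCtr libraries, while Epcam and Krt18 were at 0 in all 8, and its part in the results was not tested.

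Of the 38 members, 14 reached a mean of 1 FPKM over the 8 libraries and were tested, 10 integrin subunits and 4 laminin chains. Among the integrins, Itgb1, Itga5 and Itgb3 were higher with Fto siRNA and Itga1 was lower, while 6 did not pass the test. Among the laminins, Lama4, Lamb2 and Lamc1 were lower and Lamb1 did not pass. A call is a limma adjusted p under 0.05 on log2(FPKM + 0.5), adjusted over all 11398 tested genes. The 3 higher members were 21.4% of the tested members, beside 6.97% of all tested genes called higher, and the 4 lower members were 28.6%, beside 12.3% of all tested genes called lower. Over all tested genes 36.2% of calls were higher, and this share was 47.1% with median-ratio scaling and 47.4% with quantile normalization, under both of which the same 3 members were called higher but only Itga1 and Lama4 of the 4 lower members were called lower. Ranges did not overlap between the groups for 3 tested members that were higher, beside 9.08% of tested genes, and for 3 that were lower, Itga1, Lama4 and Lamb2, beside 15.1% of tested genes. The median log2 fold change was 0.08 over the 10 tested integrins and -0.16 over the 4 tested laminins, beside -0.02 over all tested genes. The members that passed the filter are 14 of 38, so these counts do not describe the families as a whole. In bulk RNA, fewer cells of a kind and less RNA per cell cannot be told apart.

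**Figure D1:**
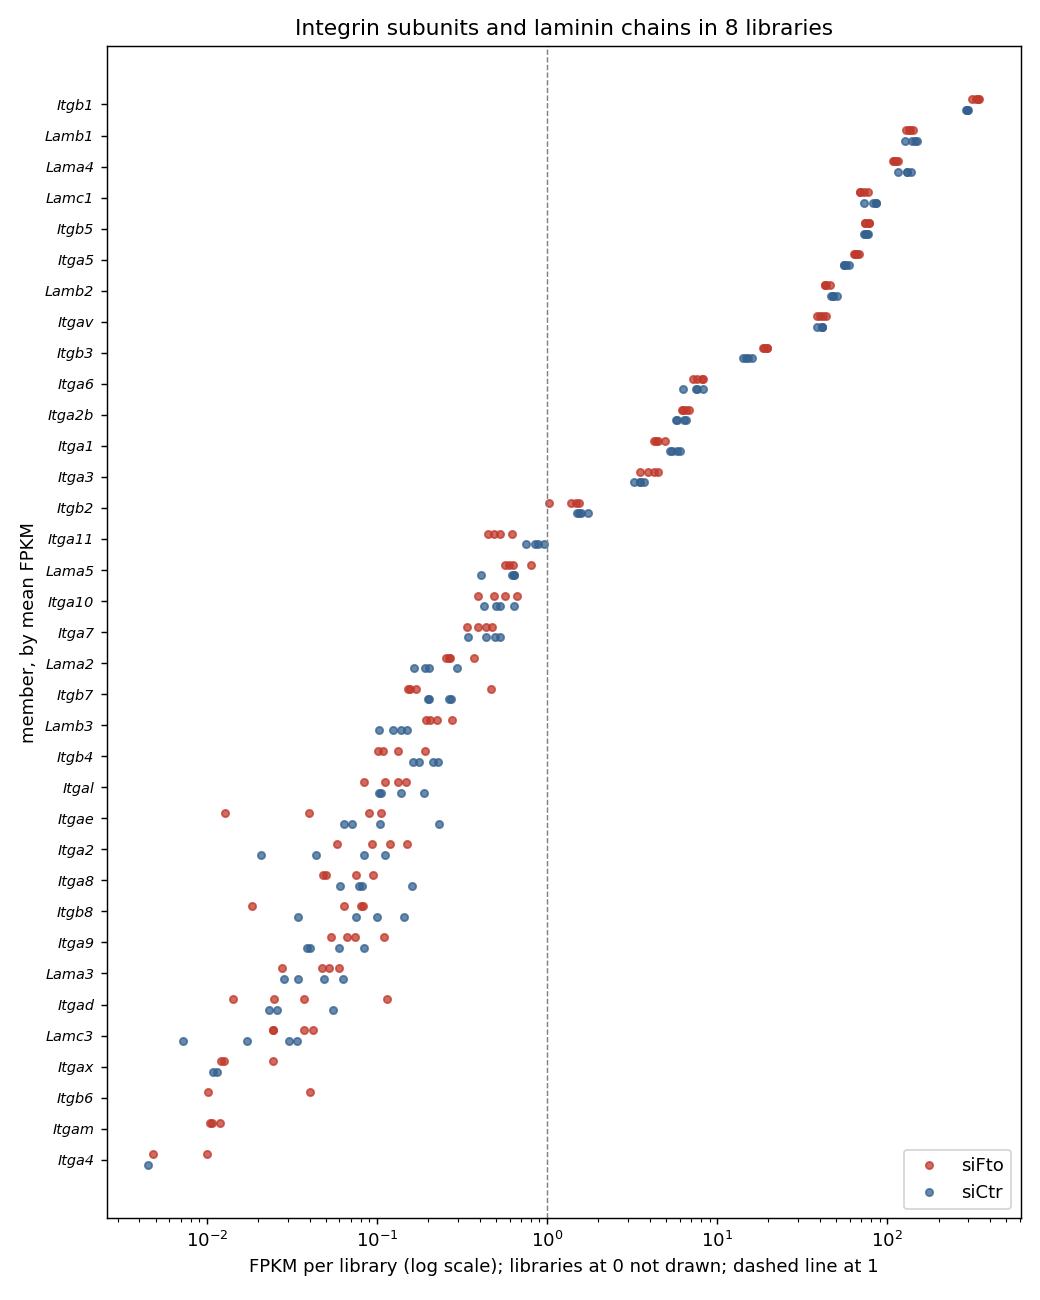
FPKM of the members described here in each of the 8 libraries on a log axis, ordered by their mean, with siFto libraries drawn above siCtr libraries in each line; the dashed line marks 1 FPKM and libraries at 0 are not drawn. Itgb1 stands highest, between 289.6 and 346 FPKM, and Itga11 is the highest member whose mean lies below the line.

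**Figure D2:**
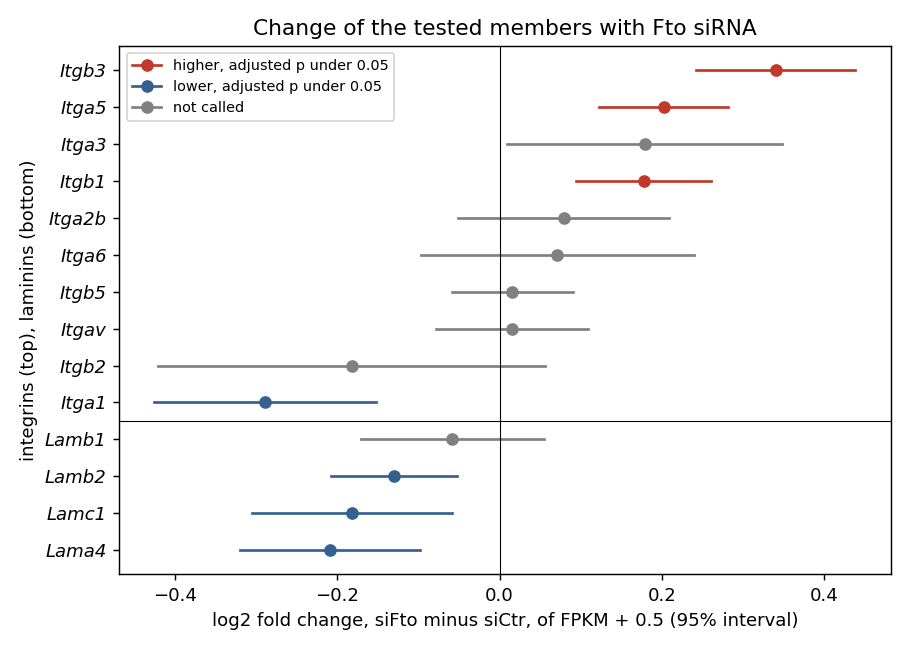
Log2 fold change (siFto minus siCtr, of FPKM + 0.5) of the 14 tested members with its 95% interval, integrins above and laminins below the horizontal line. Itgb3 lies furthest to the right at 0.34 and Itga1 furthest to the left at -0.29, and all 4 laminin chains lie left of 0.

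Itgb1 encodes the beta subunit shared by most integrins of adherent cells and had the highest FPKM of all members (mm9 chr8:131209553-131257479). It had 315, 343, 332 and 346 FPKM in siFto libraries, against 299, 296, 295 and 289.6 FPKM in siCtr libraries. Every siFto library lay above every siCtr library, and the siFto libraries were more spread than the controls. The mean was 13.2% higher in siFto libraries, 334 ± 13.9 FPKM against 295 ± 3.91 FPKM in siCtr libraries (SD, n = 4 each), with a log2 fold change of 0.18 (SE 0.038, limma adjusted p = 0.00915).

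Itga5, which pairs with Itgb1 as the main fibronectin receptor, rose by a similar amount (mm9 chr15:103174717-103197179). It had 65.9, 67.9, 64.6 and 63.8 FPKM in siFto libraries, against 55.3, 57.0, 55.7 and 59.7 FPKM in siCtr libraries. The groups did not overlap, although the highest control, replicate 4, came close to the lowest siFto library. The mean was 15.2% higher in siFto libraries, with a log2 fold change of 0.20 (SE 0.036, limma adjusted p = 0.0041). The promoters of Itgb1 and Itga5 are shown because both subunits of the same receptor moved in the same direction. They run from 250 bases before to 50 bases after the annotated start in RefSeq on build GRCm38.p6, at chr8:128685404-128685703 on the + strand for Itgb1 and chr15:103366742-103367041 on the - strand for Itga5, with capitals at each GGGCGG or CCGCCC, the core of a GC box on either strand:
Itgb1: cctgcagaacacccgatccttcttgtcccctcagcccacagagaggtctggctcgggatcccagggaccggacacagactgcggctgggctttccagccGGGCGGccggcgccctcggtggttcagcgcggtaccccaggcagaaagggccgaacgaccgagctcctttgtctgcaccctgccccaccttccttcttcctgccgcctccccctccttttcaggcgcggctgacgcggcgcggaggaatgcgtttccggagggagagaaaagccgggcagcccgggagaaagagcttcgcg
Itga5: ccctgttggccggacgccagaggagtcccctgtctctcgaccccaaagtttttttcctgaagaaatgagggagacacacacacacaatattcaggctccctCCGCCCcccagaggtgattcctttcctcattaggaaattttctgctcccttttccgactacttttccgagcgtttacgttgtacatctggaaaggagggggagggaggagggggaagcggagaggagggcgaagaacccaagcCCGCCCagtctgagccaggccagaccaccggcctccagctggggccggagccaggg
The Itgb1 promoter holds 1 such word and is 67.3% G and C, and the Itga5 promoter holds 2 and is 58.7% G and C. The word occurs in 12 of 27 promoters found for 24 members and in 35.7% of all 32851 promoters in the RefSeq table. No entry was found for Itgb3, Lama4 or Lamc1.

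Itgb3 encodes the beta subunit that pairs with Itgav in receptors for vitronectin and other RGD proteins, and it had the largest change of the tested members (mm9 chr11:104469313-104531785). It had 19.7, 18.5, 19.5 and 18.8 FPKM in siFto libraries, against 16.1, 14.7, 14.2 and 15.1 FPKM in siCtr libraries. All siFto libraries lay clear of all controls. The mean was 19.1 ± 0.569 FPKM in siFto libraries and 15.0 ± 0.796 FPKM in siCtr libraries (SD, n = 4 each), 27.4% higher, with a log2 fold change of 0.34 (SE 0.044, limma adjusted p = 0.000743).

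The alpha partners of Itgb3, which are Itgav and Itga2b, and the RGD-binding beta subunit Itgb5 did not pass the test. Itgav, the alpha subunit of vitronectin receptors, had 40.2, 43.5, 41.7 and 38.7 FPKM in siFto libraries, against 41.4, 41.0, 38.6 and 41.1 FPKM in siCtr libraries. Itgb5, another beta partner of Itgav, had 77.7, 73.9, 77.5 and 73.6 FPKM in siFto libraries, against 73.7, 76.9, 75.8 and 73.0 FPKM in siCtr libraries. The groups overlapped for both genes. Their log2 fold changes were both 0.02, with 95% intervals of -0.08 to 0.11 for Itgav and -0.06 to 0.09 for Itgb5 (limma adjusted p = 0.834 and 0.788), and the sign for Itgav turned without siFto replicate 2 (-0.01) and without siCtr replicate 3 (-0.01). Itga2b, the alpha subunit of the platelet fibrinogen receptor, was at 6.21 to 6.85 FPKM in siFto libraries and 5.68 to 6.56 FPKM in siCtr libraries (log2 fold change 0.08, limma adjusted p = 0.39). The 4 platelet markers, Itga2b included, summed to 11.2 to 12.97 FPKM in siFto libraries and 10.0 to 11.4 FPKM in siCtr libraries. Of the others Gp1bb averaged 4.16 FPKM in siFto libraries and 3.81 FPKM in siCtr libraries. Pf4 averaged 0.413 FPKM in siFto libraries and 0.202 FPKM in siCtr libraries, and Ppbp 0.712 and 0.816 FPKM. The other RGD-binding subunits, Itga8, Itgb6 and Itgb8, stayed under 0.2 FPKM in every library.

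Shares within each subunit type were compared next. Itga5 made up 49.9 ± 0.612% of the summed FPKM of the 18 alpha subunits in siFto libraries and 46.5 ± 0.945% in siCtr libraries (SD, n = 4 each), while Itgav made up 31.2 ± 0.625% in siFto libraries and 33.1 ± 0.609% in siCtr libraries. The ratio of Itga5 to Itgav was 1.55 to 1.65 in siFto libraries and 1.34 to 1.45 in siCtr libraries. Among the 9 beta subunits Itgb1 held 77.5 ± 1.22% in siFto libraries and 76.2 ± 0.234% in siCtr libraries, and Itgb5 held 17.6 ± 0.952% in siFto libraries and 19.3 ± 0.391% in siCtr libraries. Itgb3 held 4.45 ± 0.242% in siFto libraries and 3.88 ± 0.20% in siCtr libraries. The ratio of Itgb3 to Itgb5 did not overlap between groups either, at 0.251 to 0.256 in siFto libraries and 0.188 to 0.218 in siCtr libraries. These ratios were not tested. The summed beta subunits reached 430 ± 11.3 FPKM in siFto libraries and 387 ± 4.95 FPKM in siCtr libraries, and the alpha subunits 131 ± 4.63 FPKM in siFto libraries and 122 ± 3.37 FPKM in siCtr libraries, so beta messages exceeded alpha messages in both groups.

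Of the collagen-binding subunits only Itga1 was high enough to be tested, and it was lower. Itga1, which pairs with Itgb1 and binds collagens, had 4.27, 4.92, 4.36 and 4.49 FPKM in siFto libraries, against 5.76, 6.02, 5.31 and 5.39 FPKM in siCtr libraries (mm9 chr13:115748288-115892172). Every siFto library lay below every control. The log2 fold change was -0.29 (SE 0.062, limma adjusted p = 0.00946), and the mean was 4.51 ± 0.289 FPKM in siFto libraries and 5.62 ± 0.335 FPKM in siCtr libraries (SD, n = 4 each). Its locus contains Pelo, an overlapping gene with 15.3 ± 1.51 FPKM in siFto libraries and 14.9 ± 1.13 FPKM in siCtr libraries that was not called (limma adjusted p = 0.797). The labels do not state whether the sequencing was stranded, so reads of Itga1 and Pelo may not be separable.

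Itga11, a receptor subunit for fibrillar collagens in fibroblasts, was too low to be tested at a mean of 1 FPKM. It had 0.617, 0.526, 0.484 and 0.450 FPKM in siFto libraries, against 0.884, 0.953, 0.751 and 0.846 FPKM in siCtr libraries, from 43 to 109 fragments per library. The groups did not overlap, and with no filter on low values its log2 fold change was -0.42 (limma adjusted p = 0.0105). Itga10, the third collagen-binding subunit present, had 0.392 to 0.663 FPKM in siFto libraries and 0.428 to 0.639 FPKM in siCtr libraries, and Itga2 stayed at or under 0.150 FPKM in every library. The 4 collagen-binding subunits together summed to 5.66 ± 0.381 FPKM in siFto libraries and 7.07 ± 0.340 FPKM in siCtr libraries. The ratio of Itga1 to Itga5, the 2 called alpha subunits, was 0.0647 to 0.0725 in siFto libraries and 0.0903 to 0.106 in siCtr libraries. Itga1 was lower and Itga5 higher, each without overlap, so this ratio had to separate the groups and adds no further result. It was not tested.

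The laminin-binding integrins were low and none was called. Itga6, which pairs with Itgb1 or Itgb4 to bind laminins, had 8.27, 7.63, 8.09 and 7.22 FPKM in siFto libraries, against 7.63, 7.49, 6.32 and 8.25 FPKM in siCtr libraries. The groups overlapped over most of their range (log2 fold change 0.07, limma adjusted p = 0.559), and without siCtr replicate 3 the log2 fold change was 0.0013. Itga3, an epithelial-type laminin receptor subunit, was at 3.52 to 4.50 FPKM in siFto libraries and 3.24 to 3.69 FPKM in siCtr libraries, with a log2 fold change of 0.18 (95% interval 0.01 to 0.35) that missed the threshold (limma adjusted p = 0.134). Itga7 and Itgb4 stayed under 1 FPKM, with means of 0.409 and 0.133 FPKM in siFto libraries and 0.449 and 0.194 FPKM in siCtr libraries. Itgb4, the hemidesmosome subunit, therefore gave few fragments, 9 to 29 per library.

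The leukocyte subunits were near the floor of detection. Itgb2, the common beta subunit of leukocyte integrins, was the only one tested, at 1.02 to 1.53 FPKM in siFto libraries and 1.49 to 1.75 FPKM in siCtr libraries (log2 fold change -0.18, limma adjusted p = 0.272). Its alpha partners Itgal, Itgam, Itgax and Itgad stayed under 0.2 FPKM in every library, and Itgam was listed at 0 in all siCtr libraries. The leukocyte markers Cd3e and Emr1 were at 0 in all 8 libraries and Ptprc reached at most 0.00949 FPKM. The leukocyte markers Cd68 and Csf1r had higher levels than these. Cd68 was at 1.20 ± 0.268 FPKM in siFto libraries and 0.974 ± 0.289 FPKM in siCtr libraries (SD, n = 4 each, limma adjusted p = 0.404). Csf1r, which was not tested, was at 0.796 to 1.03 FPKM in siFto libraries and 0.576 to 0.783 FPKM in siCtr libraries, without overlap. Their part in the leukocyte subunit values was not tested. Itgb7 had 0.470 FPKM in siFto replicate 1 and 0.151 to 0.273 FPKM in the other 7 libraries, and Itgae, its partner in lymphocytes, had 0.0128 to 0.232 FPKM over all libraries. Itga4 and Itga9, which bind fibronectin and other ligands, stayed at or under 0.110 FPKM.

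Among the laminins, 4 chains carried nearly all of the signal: Lama4 in the alpha position, Lamb1 and Lamb2 in the beta position and Lamc1 in the gamma position. Lama4 is the short alpha chain made by mesenchymal and vascular cells (mm9 chr10:38685320-38829994). It had 112, 108, 115 and 109 FPKM in siFto libraries, against 137, 130.5, 116 and 131 FPKM in siCtr libraries. The groups did not overlap, but control replicate 3 lay just above the highest siFto library. The mean was 111 ± 3.04 FPKM in siFto libraries and 129 ± 8.98 FPKM in siCtr libraries (SD, n = 4 each), with a log2 fold change of -0.21 (SE 0.050, limma adjusted p = 0.0159), and without siCtr replicate 3 it was -0.26 (adjusted p = 0.00122).

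Lamc1, the gamma chain of most laminins, had 76.7, 69.2, 72.5 and 68.7 FPKM in siFto libraries, against 85.9, 82.0, 73.3 and 85.2 FPKM in siCtr libraries (mm9 chr1:155066051-155179916). Control replicate 3 fell within the siFto range, so the groups overlapped. The log2 fold change was -0.18 (SE 0.056, limma adjusted p = 0.044), just past the threshold, and -0.23 (adjusted p = 0.00562) without siCtr replicate 3. The call was lost in 11 of 16 alternative analyses, with adjusted p up to 0.114.

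Lamb2, a beta chain of laminins at synapses, in muscle and in kidney, had 45.8, 43.3, 43.7 and 43.2 FPKM in siFto libraries, against 47.9, 50.3, 46.8 and 47.8 FPKM in siCtr libraries (mm9 chr9:108382192-108392861). Every siFto library lay below every control, by a small margin. The log2 fold change was -0.13 (SE 0.035, limma adjusted p = 0.027), and the call was lost in 9 of 16 alternative analyses, with adjusted p up to 0.0843. Lamb1, the more abundant beta chain, had 142, 129, 135 and 134 FPKM in siFto libraries, against 149, 140.2, 128 and 145 FPKM in siCtr libraries (mm9 chr12:31950158-32014504). These ranges overlapped, and the log2 fold change of -0.06 did not pass the test (95% interval -0.17 to 0.05, limma adjusted p = 0.469), and without siCtr replicate 3 it was -0.10 (adjusted p = 0.0903).

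All 4 chains had their lowest control in replicate 3, and 3 of the 4 had their highest siFto value in replicate 1. The summed laminin FPKM was 378, 351, 368 and 357 in siFto libraries, against 422, 404, 365 and 410.3 in siCtr libraries, so control replicate 3 lay within the siFto range. The share of each chain within its position changed little: Lama4 made up 99.1 ± 0.125% of alpha chains in siFto libraries and 99.4 ± 0.051% in siCtr libraries, and Lamb1 made up 75.3 ± 0.385% of beta chains in siFto libraries and 74.4 ± 1.22% in siCtr libraries (SD, n = 4 each). The ratio of Lama4 to Lamc1 overlapped between groups, at 1.46 to 1.59 in siFto libraries and 1.53 to 1.60 in siCtr libraries. The ratio of Lamb1 to Lamc1 did not, at 1.85 to 1.95 in siFto libraries and 1.71 to 1.74 in siCtr libraries. Neither ratio was tested.

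The other 7 laminin chains were below the filter. Lama5, the main alpha chain of adult epithelial and vascular basement membranes, had 0.563 to 0.804 FPKM in siFto libraries and 0.406 to 0.642 FPKM in siCtr libraries. Lama2, the alpha chain of muscle, had 0.253 to 0.370 FPKM in siFto libraries and 0.165 to 0.293 FPKM in siCtr libraries. Lamb3, a beta chain of epithelia, had 0.193, 0.224, 0.277 and 0.204 FPKM in siFto libraries, against 0.137, 0.150, 0.103 and 0.124 FPKM in siCtr libraries, from 8 to 20 fragments per library. Its groups did not overlap, with siFto above siCtr. With no filter on low values its log2 fold change was 0.20 (limma adjusted p = 0.0237). Of the epithelial markers, Krt14 was detected in siCtr libraries alone. Krt5 was detected in all 8 libraries, and Krt8 and Cdh1 in some libraries of both groups. Their part in the Lamb3 values was not tested. Lama3, an alpha chain of epithelia, and Lamc3 stayed under 0.1 FPKM, and Lama1, an alpha chain of the embryo, was listed at 0 in all 8 libraries.

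Over the 24 members below the filter, Lama1 and Itgb2l were at 0 in all 8 libraries, 17 were above 0 in all 8, and 15 had fewer than 20 fragments in every library. Lamb3 was the only one whose siFto libraries all lay above the controls and Itga11 the only one whose siFto libraries all lay below, beside 1.92% and 2.36% of the 6409 genes that were above 0 and under the filter. The other members above 0 overlapped between the groups.

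**Figure D3:**
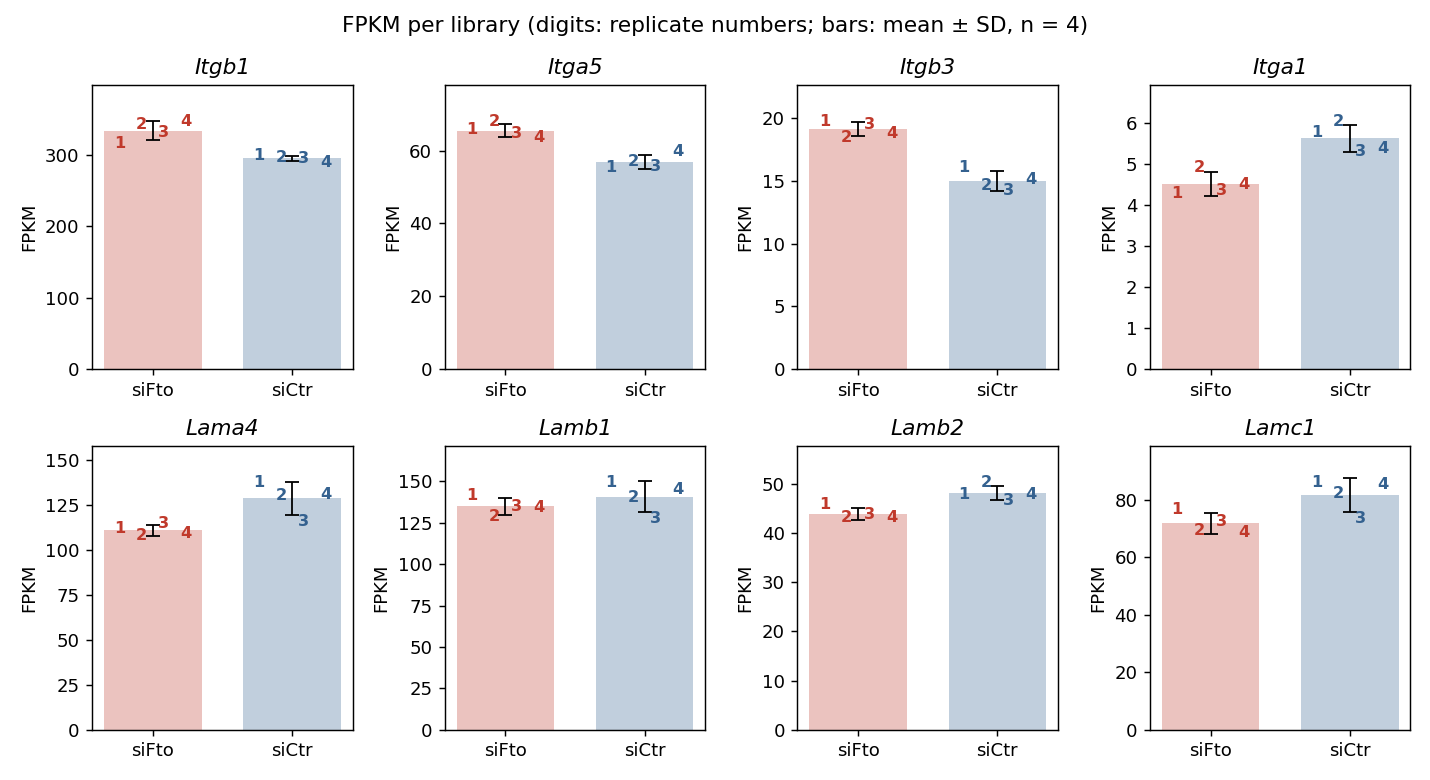
FPKM of the 4 called integrin subunits and the 4 tested laminin chains in each library, siFto left and siCtr right; digits are replicate numbers, bars are means and whiskers are SDs (n = 4), and each axis starts at 0. The siCtr digit 3 is the lowest control in all 4 laminin panels, and for Lamc1 it lies inside the siFto range.

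A sequence feature was looked up in the members because the words GACCTTA and ACCTTAA had been seen in many lower genes of these data before, so that the choice of words was not independent. The longest annotated 3' UTR per gene was searched on the transcript strand only. The words overlap in GACCTTAA, which occurs once in the coding sequence of Fto, at position 565 of 1443. The siRNA sequences were not used here. Of all tested genes with a searched UTR 12.9% held either word (1387 of 10720), as did 7.9% of higher genes (60 of 756) and 26.0% of lower genes (350 of 1348). Of the 14 tested members 2 held one (14.3%), Lamc1 and Itga6. The count over all members that follows includes those below the filter. Among the members 4 of 38 held one, which are shown with 8 bases on each side, with the word in capitals, from GENCODE M21 on GRCm38:
Lamc1: agctcaccACCTTAAcattttgg
Itga11: ccctgggaACCTTAAacctcaga
Itga6: gttgttctGACCTTActtattta
Itga4: gtgtaaatACCTTAAtcaccttt
These lie at chr1:153219433-153219455 on the - strand for Lamc1, chr9:62783702-62783724 on the + strand for Itga11, chr2:71856732-71856754 on the + strand for Itga6 and chr2:79330871-79330893 on the + strand for Itga4. Of the 4 members called lower, Lamc1 alone held a word, while Itga1, Lama4 and Lamb2 held neither. The searched UTRs of Lama4 and Lamb2 were short, at 155 and 110 bases, which leaves little room for a word. Those of Lamc1 and Itga1 had 2551 and 6994 bases, and the median over all tested genes was 1184 bases. Itga6 held one and was not called, and Itga11 was the member below the filter whose siFto libraries all lay below the controls. A match is a description of the letters, and its part in the levels was not tested.

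The cytoplasmic partners of integrins include the proteins that couple them to actin. Of 29 tested adaptors and kinases 3 were higher, 8 were lower and 18 were not called, beside the shares of 6.97% and 12.3% over all tested genes, with a median log2 fold change of -0.01 beside -0.02 over all tested genes. Tln1, the talin that binds beta tails and activates integrins, was at 64.7 ± 2.86 FPKM in siFto libraries and 68.7 ± 6.52 FPKM in siCtr libraries (SD, n = 4 each), and was not called (limma adjusted p = 0.428), but was lower without siCtr replicate 3 (-0.15, adjusted p = 0.0218). Fermt2, a kindlin that binds the same tails, was at 59.3 ± 1.51 FPKM in siFto libraries and 57.9 ± 0.273 FPKM in siCtr libraries (adjusted p = 0.487). Vcl, the vinculin that links talin to actin, fell to 101 ± 5.60 FPKM in siFto libraries, against 116 ± 5.07 FPKM in siCtr libraries (log2 fold change -0.21, adjusted p = 0.0116). Zyx, zyxin of mature adhesions, fell to 151 ± 4.60 FPKM in siFto libraries, against 196 ± 11.2 FPKM in siCtr libraries (-0.37, adjusted p = 0.000473).

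Ilk, the pseudokinase that joins beta tails to parvin and PINCH proteins, had 98.6, 95.6, 101 and 103 FPKM in siFto libraries, against 108, 116, 123 and 110.2 FPKM in siCtr libraries. The groups did not overlap (log2 fold change -0.20, limma adjusted p = 0.0114). Its parvin partners Parva (-0.11, adjusted p = 0.0249) and Parvb (-0.28, adjusted p = 0.0156) and the PINCH protein Lims2 (-0.40, adjusted p = 0.0398) were also lower, while the more abundant PINCH protein Lims1 was at 42.6 ± 1.89 FPKM in siFto libraries and 42.8 ± 0.639 FPKM in siCtr libraries (adjusted p = 0.886); these 4 were picked out after their values were seen. The scaffold Bcar1 (-0.16) and the endocytic adaptor Dab2 (-0.21) were lower, and tensin Tns1 (0.35), the adaptor Crk (0.15) and the actinin Actn1 (0.13) were higher. Ptk2, focal adhesion kinase, did not pass the test (0.10, limma adjusted p = 0.131, and 0.06 without siCtr replicate 3). None of the 8 lower adaptors held either 3' UTR word.

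Of 23 tested matrix ligands of integrins 6 were higher and 3 lower, beside 6.97% and 12.3% of all tested genes, with a median log2 fold change of 0.02. Fn1, fibronectin and ligand of the Itga5 and Itgb1 receptor, was at 350 ± 20.4 FPKM in siFto libraries and 305 ± 30.2 FPKM in siCtr libraries (SD, n = 4 each) and was not called (0.20, limma adjusted p = 0.0716), but was called without siCtr replicate 4 (adjusted p = 0.0439). The 3 lower genes were osteopontin Spp1 (117 ± 8.84 FPKM in siFto libraries, 161 ± 5.37 FPKM in siCtr libraries), Fbln5 (-0.24) and Mfge8 (-0.28). The 6 higher genes were the collagen chains Col1a1 (0.24), Col1a2 (0.22), Col3a1 (0.22) and Col6a3 (0.26), fibrillin Fbn1 (0.29) and nephronectin Npnt (0.38). Of these, Col1a1 (limma adjusted p = 0.0473) and Col3a1 (0.0378) were near the threshold, and their groups overlapped.

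The partners of laminins in the basement membrane, with receptors of laminin other than integrins, gave 7 higher and 4 lower genes of 20 tested, beside 6.97% and 12.3% of all tested genes, with a median of 0.03. Nid1, the nidogen that bridges laminin to collagen IV, was at 284 ± 8.12 FPKM in siFto libraries and 299.9 ± 12.2 FPKM in siCtr libraries (SD, n = 4 each; limma adjusted p = 0.197), and the perlecan gene Hspg2 at 101 ± 8.87 FPKM in siFto libraries and 86.2 ± 12.0 FPKM in siCtr libraries (log2 fold change 0.23, adjusted p = 0.14, and 0.12 without siCtr replicate 3). Dag1, the dystroglycan receptor of laminin, rose to 96.9 ± 2.44 FPKM in siFto libraries, against 85.1 ± 3.31 FPKM in siCtr libraries (0.19, adjusted p = 0.00661). Col15a1 (0.40) and Fbln1 (0.42) had the lowest p among the higher genes of this list, and the syndecans Sdc2 (-0.27) and Sdc4 (-0.23) among the lower ones. The other nidogen, Nid2, was called higher (0.21, limma adjusted p = 0.025), unlike Nid1. Sparc (0.20), Sgcd (0.32) and Sdc1 (0.14) were also higher, and Agrn (-0.26) and Sgce (-0.15) were also lower. Sdc1 (limma adjusted p = 0.0412), Agrn (0.0348) and Sgce (0.0324) were near the threshold, and the groups overlapped for Nid2 and Sdc1. Of the 4 lower genes 3 held a 3' UTR word (Agrn, Sdc2 and Sdc4), beside 26.0% of all lower genes. Of the 7 higher genes 1 did (Sdc1), beside 7.9% of all higher genes. None of the 3 lower matrix ligands did, nor did Mmp14, the 1 lower surface partner described next. Among partner genes that were not called, the adaptor Rsu1, the matrix ligands Col6a2, Edil3 and Vcam1, and Itgb1bp1 held a word.

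Of 18 tested partners of integrins on the cell surface 5 were higher and 1 was lower, beside 6.97% and 12.3% of all tested genes, with a median of 0.07. Cd47, which associates with Itgb3 integrins, rose to 57.0 ± 1.76 FPKM in siFto libraries, against 44.4 ± 1.95 FPKM in siCtr libraries (0.36, limma adjusted p = 0.000327; SD, n = 4 each). The tetraspanin Cd151, a partner of laminin-binding integrins, rose to 58.7 ± 1.85 FPKM in siFto libraries, against 50.1 ± 2.89 FPKM in siCtr libraries (0.23, adjusted p = 0.00654). The hyaluronan receptor Cd44 (0.37) and the metalloproteinases Adam9 (0.31) and Adam15 (0.13) were also higher. Mmp14, a membrane metalloproteinase that cleaves matrix, fell to 238 ± 14.4 FPKM in siFto libraries, against 344 ± 10.3 FPKM in siCtr libraries (-0.53, adjusted p = 8.6e-05). Of the binding proteins named after integrins, which are not members, 3 were tested and none was called: Itgb3bp (-0.15, and -0.09 without siCtr replicate 3), Itgb1bp1 (-0.06) and Itgbl1 (0.04, and 0.01 without siCtr replicate 3).

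**Figure D4:**
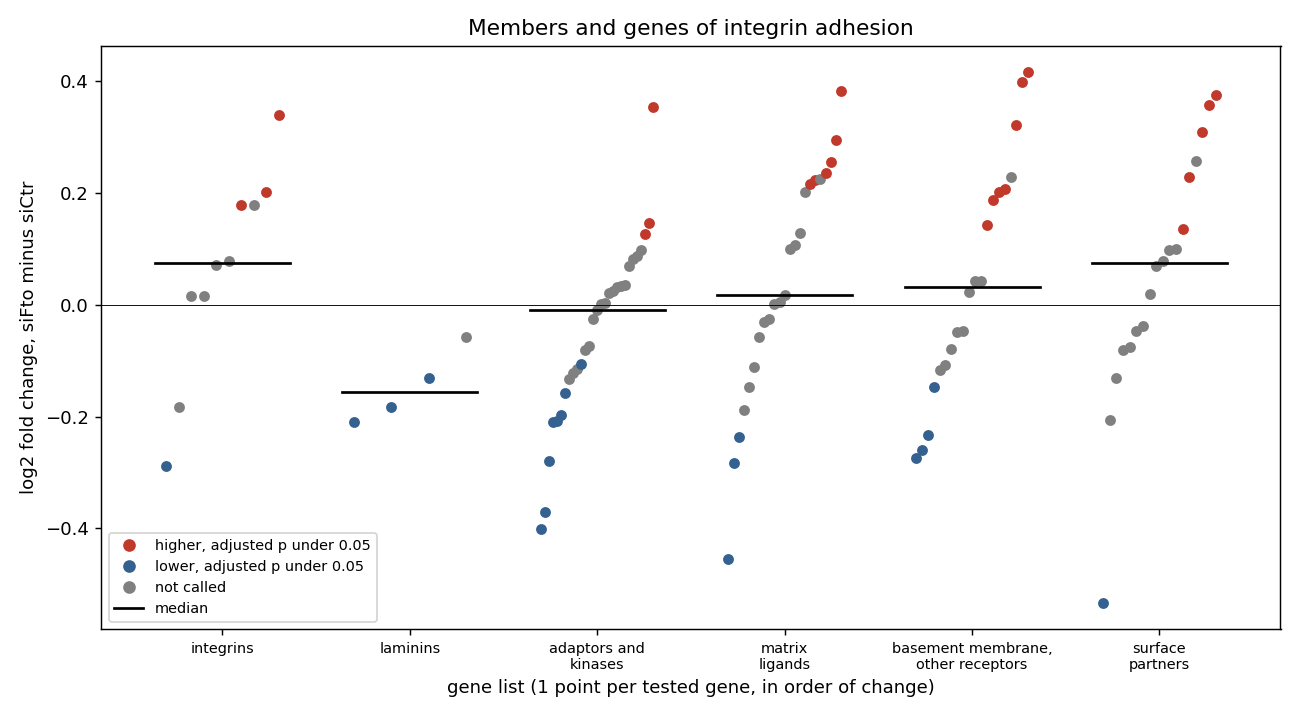
Log2 fold change (siFto minus siCtr, of FPKM + 0.5) of each tested gene by list, 1 point per gene in order of change, with the median as a bar; colours mark genes called higher or lower. The medians are 0.08 for integrins and -0.16 for laminins, and lie between -0.01 and 0.07 for the 4 lists of partner genes.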

How the data were processed

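RNA of 8 libraries, 4 siFto and 4 siCtr as the labels group them, was sequenced. TopHat2 2.0.11, Cufflinks 2.2.1 and build mm9 are named in the submitters' processing notes. The authors deposited FPKM per gene with the bounds of its interval, 1 table per library, per the file headers. These values are scaled by length and depth and are estimated by a model that splits fragments among overlapping transcripts, so no count test was run. Fragments behind a value were worked out from the width of its interval, and 81.1% of 196 member values under 1000 fragments came out whole within 0.02. Intervals describe the error within 1 library and not the spread between libraries. Where a value did not come out whole, its interval may hold more than counting error, and its fragment number is approximate.

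Genes with a mean of at least 1 FPKM over the 8 libraries were tested on log2(FPKM + 0.5), a scale that understates changes of low genes, with limma 3.58.1 (R 4.3.3; trend in the prior variance, two-sided) and Benjamini-Hochberg adjustment over 11398 genes. The steps were tested on simulated data. Tables, sequence searches and plots used Python 3.11.15 with pandas 2.3.3, numpy 2.4.6, scipy 1.17.1 and matplotlib 3.10.9. Alternatives were pseudocounts of 1 and 0.1, no filter, a mean of 5 FPKM, median-ratio scaling, quantile normalization, the replicate number as a block, no trend, and each library left out. Values per library are given for called members and the 10 highest members; other genes are named by fold change, as are up to 4 genes per list with the lowest p, 13 genes chosen by name, and the called genes of each list. Members and lists were chosen with earlier results of these data known. Loci are mm9 as deposited, counted from 1; UTRs (GENCODE M21) and promoters (RefSeq) are GRCm38. The tables that compile all libraries were not used here. The values of 1 member below the filter are not reported here.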

Additional observations from a re-analysis of the deposited data

Results flagged for a closer look

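Among 88 groups of 4 libraries, from 44 named genes, 5 held a library whose gap to the nearest of the others took up more of the group's whole range than Dixon's 95% critical value allows. Chance gives this in about 1 in 20 groups, so 5 in 88 is near that rate. Itgav was at 38.6 FPKM in siCtr replicate 3, against 41.0 to 41.4 FPKM in the other controls. Tln1 was at 59.0 FPKM in siCtr replicate 3, against 71.5 to 72.4 FPKM in the other controls. Bcar1 was at 38.4 FPKM in siFto replicate 1, against 35.9 to 36.1 FPKM in the other siFto libraries. Tns1 was at 25.0 FPKM in siFto replicate 4, against 27.8 to 28.2 FPKM in the other siFto libraries. Itgbl1 was at 22.3 FPKM in siCtr replicate 1, against 18.6 to 19.1 FPKM in the other controls.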

How the results depend on the processing

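Over 16 alternatives, Itgb3 (adjusted p 0.000487 to 0.00388), Itga5 (0.00284 to 0.0164), Itgb1 (0.00461 to 0.0312), Itga1 (0.00857 to 0.0329) and Lama4 (0.00122 to 0.0475) were called in all 16 with the same sign. Lamb2 was called in 7 and Lamc1 in 5, and Lamb1 in none. The number of laminin chains called lower was accordingly 1 with median-ratio scaling, 1 with quantile normalization and 1 to 3 with each library left out in turn, against 3 in the report. With no filter on low values 2 integrin subunits were lower (Itga1 and Itga11) and 1 laminin chain was higher (Lamb3). The log2 fold change of Itgav lay between -0.0122 (without siFto replicate 2) and 0.0423 (without siFto replicate 4) with each library left out in turn, was also below 0 without siCtr replicate 3 (-0.0073), and was called in no alternative. Without siCtr replicate 3, 941 genes were higher and 1432 lower over all tested genes. The cause of these changes was not tested. The same replicate numbers in the 2 groups did not pair the libraries, with correlations of deviations from -0.19 to 0.07, and with the number as a replicate block 1 laminin chain was lower, Lamb2 (adjusted p 0.0635) and Lamc1 (0.0527) losing their calls. The depth limits the 15 members with fewer than 20 fragments in every library, for which no change was detected.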
